A study of Drosophila melanogaster with 6 samples.

Results

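The seminal fluid protein genes described here are 45 of the 17489 genes in the count tables. They are the 28 genes whose FlyBase symbol starts with *Sfp* and a digit, and the 17 genes whose symbol starts with *Acp*, 2 digits and a letter. The cuticle genes *Acp1* and *Acp65Aa* share part of the name and were left out. The set was selected on its counts in these 6 libraries, with the difference between the diets already known, so the values on the 2 diets are given as a description. Calls from a fit over all genes are counted for the members further on, and they rest on the same values that chose them.

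To ask how dietary sugar changes the mRNAs of sweet-sensing neurons in *Pcl* mutants, the study fed mutant flies one of 2 diets and sequenced RNA from their heads. There were 3 libraries of flies on a sugar diet (30% sucrose) and 3 of flies on a control diet (5% sucrose), with the diet lasting from day 5 to day 12 of adult life. All flies were males kept in vials of 35, and each biological replicate was made from 300 heads. Both groups carried the same genotype, Gr5a:Pclc429>UAS-Rpl3-3XFLAG, in which the *Gr5a* promoter drives a FLAG-tagged ribosomal protein in the sweet taste neurons and the *Pclc429* allele affects Polycomblike, a subunit of Polycomb Repressive Complex 2. The labels name the *Gr5a* sensory neurons as the source and describe both a total lysate and a FLAG-bound fraction, without giving the fraction for each library. Counts were made from heads, and the male reproductive tract lies in the abdomen.

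Seminal fluid proteins are made mainly by the accessory gland, the paired secretory organ of the male reproductive tract, with contributions from the ejaculatory duct and bulb. They are transferred with sperm at mating. In the mated female they act on ovulation, egg laying, receptivity to further males and the storage of sperm. *Acp* stands for accessory gland protein and *Sfp* for seminal fluid protein, and many of these proteins are short secreted peptides, protease inhibitors or lectins.

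Reads assigned to genes on the sense strand numbered 16691685 to 19136781 in the sugar diet libraries and 12617127 to 24076315 in the control diet libraries. The labelled cell type was checked against its markers. The 4 sweet taste receptor genes *Gr5a*, *Gr61a*, *Gr64a* and *Gr64f* summed to 0.418 to 2.58 CPM (the share of reads assigned to genes that a gene took, times 1e6) on the sugar diet and 0.955 to 2.5 CPM on the control diet. *Gr5a* itself had 2, 4 and 10 reads in the sugar diet libraries, against 6, 0 and 10 in the control diet libraries. The photoreceptor list summed to 28637 to 33952 CPM on the sugar diet and 33942 to 36994 CPM on the control diet, and the list of general neuronal genes to 4241 to 4950 and 4194 to 4724 CPM. The yolk protein genes *Yp1*, *Yp2* and *Yp3*, which are expressed mainly in females, summed to 41.9, 41.6 and 38.2 CPM in sugar diet replicates 1, 2 and 3, against 46.8, 2340 and 270.5 CPM in control diet replicates 1, 2 and 3, although every library is labelled male. Control diet replicates 2 and 3 thus stood apart from the other 4 libraries in these genes, and their part in the levels of the male genes was not tested. In such bulk libraries, more cells of a type and more RNA per cell cannot be told apart.

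Seminal fluid protein genes were detected across nearly the whole set on the sugar diet and in a minority of its members on the control diet. With detection set at 3 reads, 39, 40 and 43 of the 45 genes were detected in sugar diet replicates 1, 2 and 3, against 14, 5 and 3 in control diet replicates 1, 2 and 3. The mean was 40.7 ± 2.08 genes on the sugar diet and 7.33 ± 5.86 genes on the control diet (SD, n = 3 each), and the groups did not overlap. Over all genes of the tables the same minimum was met by 76.8% to 78.6% of genes on the sugar diet and by 66.1% to 70.4% on the control diet.

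Of the 45 genes, 37 were detected in all 3 sugar diet libraries and 44 in at least 1 of them. The exception was *Sfp79B*, with 2, 1 and 1 reads. On the control diet, 0 genes were detected in all 3 libraries and 17 in at least 1. No read at all was found for 2, 2 and 0 genes in sugar diet replicates 1, 2 and 3, against 16, 20 and 37 genes in control diet replicates 1, 2 and 3. The deepest control diet library, replicate 1, had the highest normalized count of the 3 for 19 of the 36 genes with any control read. When every library was thinned to the depth of the shallowest, 36, 39 and 42 genes were detected on the sugar diet and 7, 5 and 2 on the control diet.

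**Figure D1:**
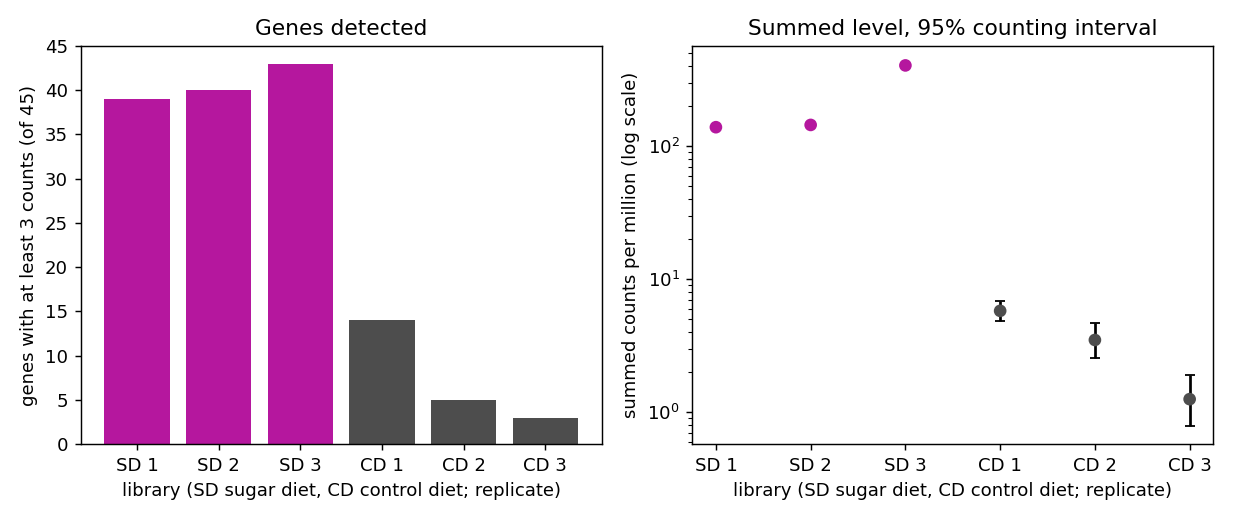
Left, the number of the 45 seminal fluid protein genes with at least 3 sense reads in each library, with sugar diet (SD) replicates 1 to 3 beside control diet (CD) replicates 1 to 3. Right, the summed level of the 45 genes in CPM on a log axis with its 95% counting interval, which for the sugar diet is smaller than the point: the sugar diet libraries lie between 138.7 and 404.3 CPM and the control diet libraries between 1.25 and 5.77 CPM.

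As a sum, the 45 genes took 2655, 2504 and 6749 reads in sugar diet replicates 1, 2 and 3, against 139, 44 and 22 reads in control diet replicates 1, 2 and 3. On the sugar diet this came to 138.7 CPM (95% exact Poisson interval 133.5 to 144.1), 144.3 CPM (138.7 to 150.1) and 404.3 CPM (394.7 to 414.1). On the control diet it came to 5.77 CPM (4.85 to 6.82), 3.49 CPM (2.53 to 4.68) and 1.25 CPM (0.785 to 1.90). The lowest sugar diet library was 24.03 times the highest control diet library, and the group means of 229.1 ± 151.8 and 3.50 ± 2.26 CPM (SD, n = 3 each) differed 65.4-fold. Without sugar diet replicate 3 the means differed 40.4-fold. Without control diet replicate 2 they differed 65.2-fold, without control diet replicate 3 49.5-fold and without control diet replicate 1 96.7-fold. Control diet replicate 1, whose yolk protein level was near that of the sugar diet, had the highest control diet sum at 5.77 CPM. Whether the yolk protein levels and these sums are linked was not tested. Sugar diet replicate 3 stood at 2.91 times replicate 1 and 2.80 times replicate 2, while replicates 1 and 2 differed 1.04-fold. Control diet replicate 1 stood at 4.61 times replicate 3. Such intervals, and the minimum for detection, describe counting error alone. They take reads as independent, though several reads can come from 1 molecule and the treatment of PCR duplicates was not given. Even in sugar diet replicate 3 the family made up 0.0404% of the reads assigned to genes.

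*Acp36DE*, a glycoprotein required for the storage of sperm in the female, had the most reads of the set. Its normalized count (reads divided by the DESeq2 size factor of the library) was 661.9, 503.4 and 1606 in sugar diet replicates 1, 2 and 3, against 22.7, 1.51 and 5.91 in the control diet libraries. Every sugar diet library was above every control diet library. With each group's reads summed and divided by its summed size factors, the sugar diet was 75.2-fold higher (95% counting interval 54.2 to 107.6). Single libraries moved this beyond its counting interval, to 219.4-fold without control diet replicate 1 and 47.9-fold without sugar diet replicate 3. The gene lies on chromosome 2L of the BDGP6 assembly at 18356047 to 18359028 on the minus strand, and its 2923 bases of exon make it the longest of the 45.

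*Acp98AB* followed, with 270.5, 309.4 and 746.7 normalized counts on the sugar diet, against 10.9, 0 and 1.97 on the control diet. *Acp95EF* had 226.8, 286.9 and 702.2 normalized counts on the sugar diet, against 12.5, 1.51 and 0 on the control diet. *Sfp87B* had 181.3, 108.7 and 339.0 on the sugar diet, against 2.34, 1.51 and 0 on the control diet. In these 3 genes replicate 3 was again the highest sugar diet library and replicate 1 the highest control diet library, and the groups lay far apart. The sugar diet was 81.04-fold higher for *Acp98AB* (95% counting interval 49.7 to 142.2), 69.9-fold for *Acp95EF* (43.5 to 120.3) and 153.9-fold for *Sfp87B* (59.8 to 566.6). Without control diet replicate 1 these became 367.7-fold, 673.6-fold and 349.2-fold, on at most 2 remaining control diet reads for each gene. Without control diet replicate 3, *Acp95EF* stood at 45.9-fold and *Sfp87B* at 101.0-fold. Without sugar diet replicate 3, *Acp98AB* stood at 53.6-fold and *Acp95EF* at 44.7-fold.

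The order of the genes changed when their length was taken into account. Per kilobase of exon, *Acp98AB* had the highest mean level on the sugar diet, at 2527 normalized counts per kilobase, followed by *Acp95EF* at 1668, *Sfp87B* at 529.5, *Acp33A* at 406.2 and *Sfp60F* at 348.8. *Acp36DE* came 7th at 316.0. *Acp98AB* has 175 bases of exon and *Acp95EF* 243. The exons of *Acp95EF* overlap those of *Spase22-23* on the other strand.

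The remaining genes among the 10 with the most reads lay on the same 2 sides. *Acp53C14a* had 149, 135 and 315 reads on the sugar diet, against 5, 4 and 0 on the control diet, a 62.0-fold difference of normalized counts (95% counting interval 32.4 to 136.2), or 40.7-fold without control diet replicate 3. *Acp32CD* had 70, 93 and 339 reads on the sugar diet, against 19, 2 and 0 on the control diet. *Acp32CD* had the lowest fold of the 10, 22.3-fold (14.4 to 36.3), and the largest ratio of sugar diet replicate 3 to replicate 1. Its fold was 10.7 without that sugar diet library, 14.6 without control diet replicate 3 and 132.6 without control diet replicate 1. *Sfp60F* had 122, 94 and 223 reads, against 1, 0 and 0 on the control diet, and *Acp33A* had 78, 95 and 261, against 1, 1 and 0. *Acp53Ea* had 73, 76 and 281 reads, against 5, 1 and 2 on the control diet. *Acp53C14b* had 82, 89 and 224, against 7, 1 and 0.

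**Figure D2:**
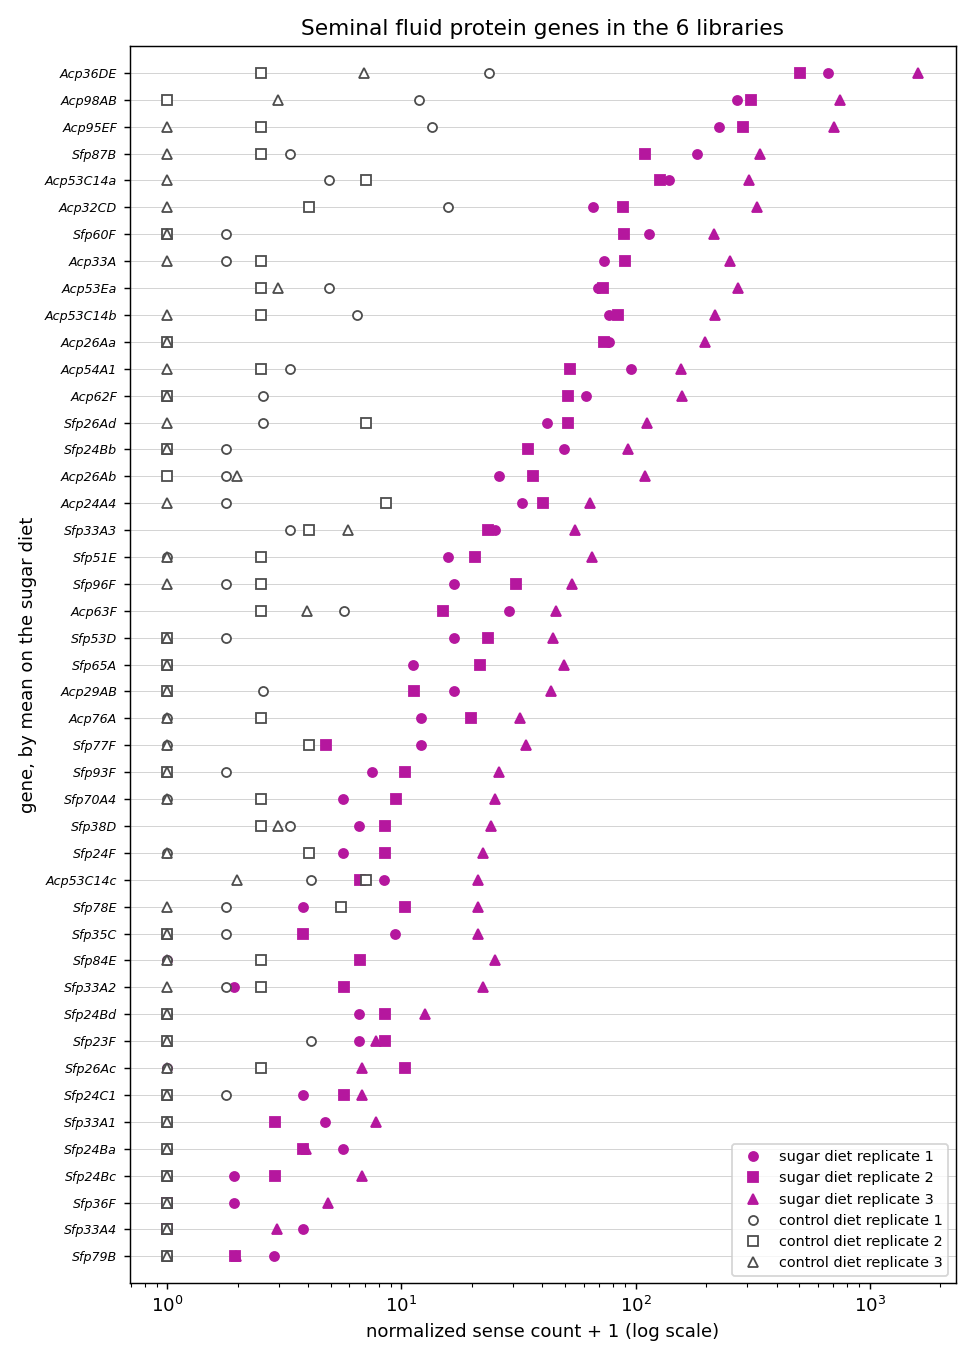
Normalized sense count plus 1 of each of the 45 genes in each of the 6 libraries, on a log axis, with genes ordered by their mean on the sugar diet. Filled magenta symbols are sugar diet libraries and open grey symbols control diet libraries. In 38 of the 45 genes every filled symbol lies to the right of every open one, beside 18.1% of all genes in the fit.

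Several members have well studied functions. *Acp26Aa*, known as ovulin, stimulates ovulation after mating. It had 82, 77 and 204 reads on the sugar diet and 0 in all 3 control diet libraries, where a count of 0 allows up to 3 reads over the group, so the sugar diet was at least 112.7-fold higher. This bound was 73.2 without sugar diet replicate 3, 74.0 without control diet replicate 3 and 63.9 without control diet replicate 1. Its neighbour *Acp26Ab* lies 20 bases from it on chromosome 2L and had 27, 38 and 112 reads, against 1, 0 and 1 on the control diet. *Acp29AB*, a lectin that acts in sperm storage, had 17, 11 and 44 reads, against 2, 0 and 0. *Acp62F*, an inhibitor of trypsin-like proteases, had 65, 54 and 162 reads, against 2, 0 and 0. *Acp76A*, a serpin, had 12, 20 and 32 reads, against 0, 1 and 0. In each of these 5 genes replicate 3 was the highest sugar diet library, as it was for most of the set.

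Detection on the control diet was spread over 17 genes, and in most of them it rested on 1 library. Replicate 1 reached 3 reads for *Acp98AB* (14), *Acp95EF* (16), *Sfp87B* (3), *Acp32CD* (19), *Acp53Ea* (5), *Acp53C14b* (7), *Acp54A1* (3), *Sfp38D* (3) and *Sfp23F* (4), and the other control diet libraries did not. Replicate 2 alone reached it for *Sfp26Ad* (4), *Acp24A4* (5) and *Sfp78E* (3). *Acp36DE*, *Acp53C14a*, *Acp53C14c*, *Acp63F* and *Sfp33A3* reached it in 2 libraries each. In *Sfp33A3*, with 26, 24 and 56 reads on the sugar diet and 3, 2 and 5 on the control diet, and in *Acp63F*, with 30, 15 and 46 reads and 6, 1 and 3, the folds were 9.87 (95% counting interval 5.16 to 21.2) and 8.48 (4.40 to 18.3).

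In 7 genes the groups touched or overlapped. *Acp53C14c* had 8, 6 and 21 reads on the sugar diet and 4, 4 and 1 on the control diet. Its fold of 3.62 (95% counting interval 1.71 to 8.57) was the lowest of the set, and it was 2.15 without sugar diet replicate 3. *Sfp78E* had 3, 10 and 21 reads, against 1, 3 and 0, and *Sfp84E* had 0, 6 and 25, against 0, 1 and 0. *Sfp84E* was thus not detected in sugar diet replicate 1. The other 4 were *Sfp33A2*, *Sfp26Ac*, *Sfp36F* and *Sfp33A4*, which had a sugar diet library with 0 or 1 read. *Sfp36F* and *Sfp33A4* had 0 reads in all control diet libraries.

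Over the set, all 45 log2 fold changes fitted by DESeq2 were above 0, with a median of 5.04 and a range of 1.78 to 9.22, beside a median of 0.01 over the 16134 genes in the fit. Among the genes that had a read on the control diet, 36 in number, the folds from summed reads ran from 3.62 for *Acp53C14c* to 408.9 for *Sfp60F*, which rests on 1 control diet read in replicate 1, with a median of 38.2. For the 9 genes with 0 reads in all control diet libraries the lower bounds ran from 1.24 for *Sfp79B* to 112.7 for *Acp26Aa*. With those genes at their bound, the median over the 45 was 30.7. By the Wald test of DESeq2, at an adjusted p (q) under 0.1 over all genes, 31 of the 42 members with a q were higher on the sugar diet and 0 lower, where 14% of all tested genes were called higher and 0.54% lower. The quasi-likelihood test of edgeR called 25 of the 25 members that passed its filter, as higher and 0 as lower, beside 13.6% and 0.34% of all genes it tested, and its filter needs reads that most of these genes had only on the sugar diet. In 38 members every sugar diet library was above every control diet library, beside 18.1% of all genes. The set was chosen with this contrast known, so nothing is read from these counts. Without sugar diet replicate 3, 7 of the 31 calls were lost, those of *Acp32CD*, *Sfp24Bd*, *Sfp24F*, *Sfp35C*, *Sfp70A4*, *Sfp77F* and *Sfp93F*. With unstranded counts 4 were lost, those of *Acp63F*, *Acp95EF*, *Sfp24Bd* and *Sfp35C*.

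The 11 members not called at this threshold had 9 to 38 reads over the sugar diet libraries. *Sfp38D*, with 6, 8 and 24 reads on the sugar diet and 3, 1 and 2 on the control diet, and *Sfp23F*, with 6, 8 and 7 and 4, 0 and 0, were among them. The others were *Acp53C14c*, *Sfp78E*, *Sfp84E*, *Sfp33A2*, *Sfp26Ac*, *Sfp24C1*, *Sfp33A1*, *Sfp24Ba* and *Sfp24Bc*. For *Sfp36F*, *Sfp33A4* and *Sfp79B* DESeq2 gave no q.

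Neighbouring genes of a cluster differed in level. The 4 *Sfp24B* genes lie on the minus strand of chromosome 2L with gaps of 126 to 355 bases between them. *Sfp24Bb* had 52, 36 and 95 reads on the sugar diet, while *Sfp24Bd* had 6, 8 and 12, *Sfp24Ba* 5, 3 and 3, and *Sfp24Bc* 1, 2 and 6. On the control diet the first had 1, 0 and 0 reads and the other 3 genes had none. Per kilobase of exon, the mean sugar diet level was 127.3 normalized counts for *Sfp24Bb* and 21.4, 6.62 and 7.44 for *Sfp24Bd*, *Sfp24Ba* and *Sfp24Bc*. A second cluster on chromosome arm 2R holds *Acp53C14a*, *Acp53C14b*, *Acp53Ea* and *Acp53C14c*, with gaps of 224 to 440 bases. The first 3 had 269.6, 212.8 and 292.9 normalized counts per kilobase on the sugar diet, and *Acp53C14c* had 19.7. Reads that fall in more than 1 place of the genome are not counted for a gene in this kind of table, so near-identical copies would be undercounted.

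The sugar diet libraries were next compared with each other. Of the 45 genes, 40 had their highest normalized count in replicate 3, 2 in replicate 2 and 3 in replicate 1. The other 5 were all low, between 4 and 21 reads over the sugar diet. For the 34 genes with at least 30 reads over the sugar diet libraries, each normalized count was expressed as a share of the gene's own sum over the 3 libraries. Replicate 3 was the highest for all 34, and the median shares were 20.2%, 21.1% and 58.3% in replicates 1, 2 and 3. The lower and upper quartiles were 53.6% and 63.9% in replicate 3. Replicates of 1 group have no order, so this is a difference between libraries and not a course over time.

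The share in replicate 3 ran from 47.0% for *Acp24A4*, with 34, 42 and 65 reads, to 81.1% for *Sfp84E*, with 0, 6 and 25. *Sfp77F* (12, 4 and 34 reads) had 68.8% and *Acp32CD* 68.3%. At the low end *Acp76A* had 50.9% and *Acp63F* 51.5%. Against a sum of 31 to 141 reads, all but that of *Acp32CD* carry wide counting errors.

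**Figure D3:**
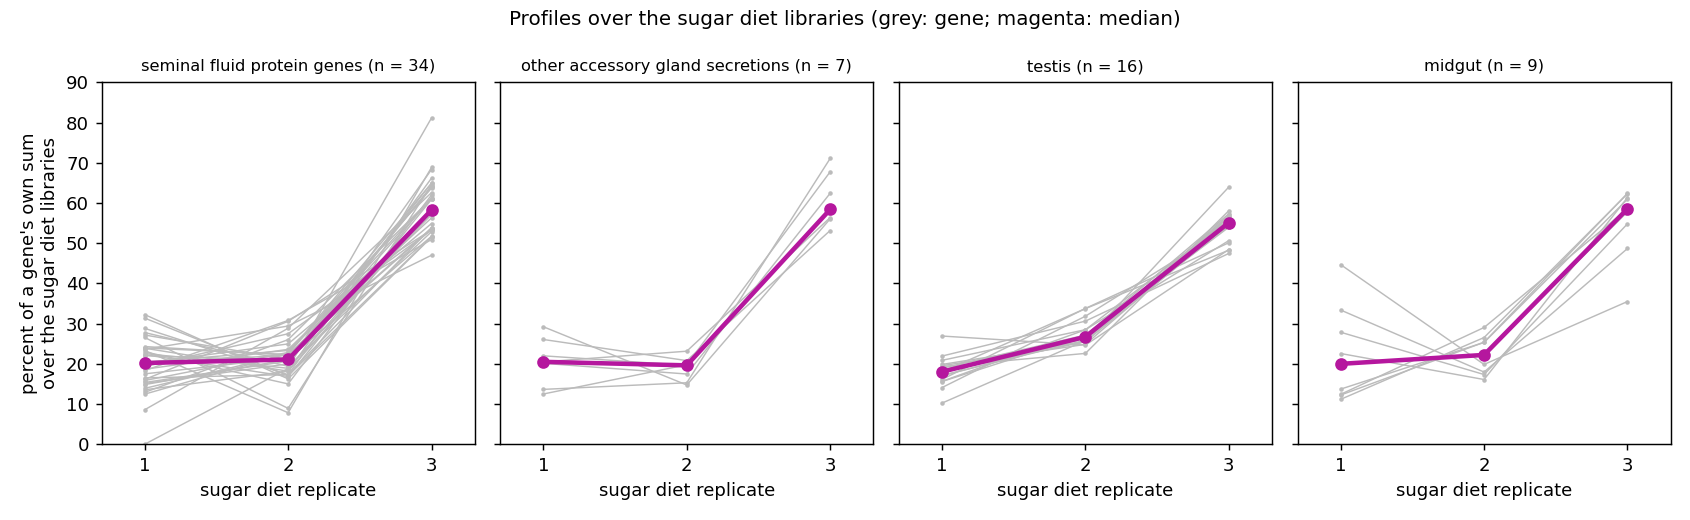
Percent of a gene's own sum of normalized counts found in each sugar diet replicate, for the 34 seminal fluid protein genes with at least 30 reads on the sugar diet and for genes of 3 marker lists that met the same minimum and were at least 4-fold above the control diet. Grey lines are genes and the thick line is their median, which for the seminal fluid protein genes is 20.2%, 21.1% and 58.3%.

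The family's summed normalized count in replicate 2 was 0.951 times that in replicate 1, and in replicate 3 it was 2.65 times that in replicate 1. Of the 34 genes, 26 had a 95% counting interval that included the first ratio and 24 had one that included the second. Genes with many reads departed from it. *Acp36DE* had a ratio of replicate 2 to replicate 1 of 0.761 (95% counting interval 0.679 to 0.852), *Sfp87B* one of 0.600 (0.473 to 0.759) and *Acp54A1* one of 0.544 (0.384 to 0.762), all under the family ratio. *Acp98AB* had 1.14 (0.974 to 1.34) and *Acp95EF* 1.26 (1.07 to 1.5), both over it. The intervals of *Acp32CD* (1.34, 0.972 to 1.85), *Sfp96F* (1.90, 1.02 to 3.64) and *Sfp84E*, with 0 reads in replicate 1, also lay over it.

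For replicate 3 over replicate 1, *Acp32CD* had the highest ratio among the 10 genes with the most reads, 5.05 (95% counting interval 3.89 to 6.62), and *Acp53Ea* had 4.01 (3.09 to 5.26). *Sfp87B* had 1.87 (1.57 to 2.24) and *Sfp60F* 1.90 (1.52 to 2.39), both under the family ratio. *Acp54A1* had 1.64 (1.28 to 2.13). In 33 of the 34 genes the interval lay above 1, with *Acp63F* as the exception (1.60, interval 0.987 to 2.62). *Acp54A1* and *Sfp87B* were thus relatively high in replicate 1 in both comparisons, and *Acp95EF*, *Acp32CD* and *Sfp84E* relatively low.

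**Figure D4:**
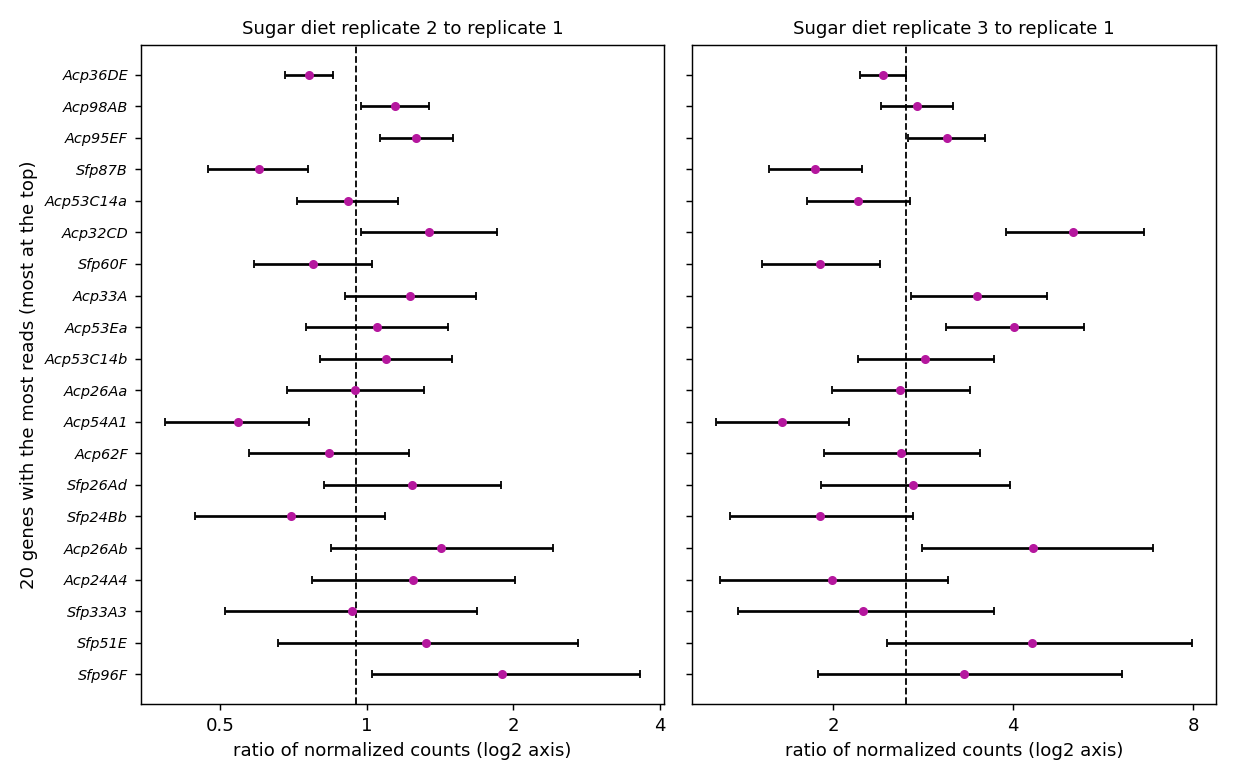
Ratio of normalized counts of sugar diet replicate 2 (left) and replicate 3 (right) to replicate 1 for the 20 seminal fluid protein genes with the most reads, on log axes, with 95% counting intervals. The dashed line is the ratio of the family sum, 0.951 on the left and 2.65 on the right, and *Acp36DE*, *Sfp87B* and *Acp54A1* lie to the left of it in the left panel.

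The relative amounts of the members were much alike in the sugar diet libraries. The 10 genes with the most reads took 75.9%, 74.7% and 76.3% of the family's reads in replicates 1, 2 and 3, and *Acp36DE* alone took 26.8% (95% Clopper-Pearson interval 25.1% to 28.5%), 21.4% (19.9% to 23.1%) and 24.6% (23.5% to 25.6%). Across the 45 genes, log2(CPM + 1) had a Pearson correlation of 0.96 to 0.98 and a Spearman correlation of 0.92 to 0.95 between pairs of sugar diet libraries. These points share their gene lengths and base composition between libraries, and genes are not replicates.

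The traces on the control diet differed in makeup from library to library. In control diet replicate 1, *Acp36DE* took 20.9% of the family's 139 reads (95% Clopper-Pearson interval 14.4% to 28.6%), and in replicate 3 it took 27.3% of 22 reads (10.7% to 50.2%). In replicate 2 it had 1 of 44 reads, or 2.27% (0.0575% to 12.02%), which is below all 3 sugar diet shares. *Acp32CD* took 13.7% of the reads in control diet replicate 1 (8.43% to 20.5%), above its 2.64%, 3.71% and 5.02% in sugar diet replicates 1, 2 and 3. The 10 genes together took 71.9%, 27.3% and 45.5% of the family's control diet reads. The Pearson correlation of control diet replicate 1 with the sugar diet libraries was 0.73 to 0.75 across the 45 genes.

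Other genes of the male reproductive tract were read from lists chosen with earlier results of these data known. The calls on all these lists stand beside 14% of all tested genes called higher and 0.54% called lower. The sex peptide network holds *SP*, the peptide that lowers a mated female's receptivity and raises egg laying, and the proteins that allow it to be stored with sperm or to act in the female. Of its 12 genes, 8 were called higher and 0 lower, with a median log2 fold change of 4.33. *SP* had 60, 95 and 173 reads on the sugar diet, against 1, 0 and 1 on the control diet. The 7 genes at least 4-fold above the control diet, a split made on these same values, summed to 12.0, 16.2 and 44.2 CPM in sugar diet replicates 1, 2 and 3, against 1.66, 0.317 and 0.114 CPM in the control diet libraries. *frma*, *hdly* and *Esp*, which act in the mated female, had log2 fold changes between −0.11 and 0.02 and were not called. *antr*, a male gene of the network, was not called either, with 10, 19 and 23 reads on the sugar diet, against 10, 5 and 5 on the control diet (log2 fold change 1.28).

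All 7 genes on the list of other accessory gland secretions were called higher, beside 14% of all tested genes, with a median log2 fold change of 5.72. They summed to 58.1, 61.0 and 177.4 CPM on the sugar diet, against 2.04, 1.27 and 0.171 CPM on the control diet. *Mst57Da* had 359, 402 and 948 reads, against 14, 3 and 0. The ratio of replicate 3 to replicate 1 on the sugar diet was 3.05 for this list and 2.91 for the seminal fluid protein genes in CPM, and that of replicate 2 to replicate 1 was 1.05 and 1.04.

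All 5 ejaculatory duct and bulb genes were called higher, beside 14% of all tested genes. *Dup99B*, a peptide of the duct related to sex peptide, had 151, 178 and 481 reads on the sugar diet, against 4, 2 and 0 on the control diet. *Anp*, the antibacterial peptide andropin of the same duct, had 63, 81 and 155 reads, against 0, 0 and 0, and *Ebp*, a protein of the ejaculatory bulb, had 619, 399 and 1184, against 14, 3 and 3. *Obp56g* had 454, 415 and 695 reads on the sugar diet and 505, 166 and 327 on the control diet, so reads of this gene were abundant in every library. Its log2 fold change was 0.61 (Wald test, q 0.086). Its normalized counts overlapped between the diets, with 389.0 in sugar diet replicate 2 and 394.5 in control diet replicate 1. Among 3 regulators of the male tract, *prd*, which the accessory gland needs for its development, and *Abd-B* were called higher. *prd* had 28, 28 and 99 reads, against 7, 2 and 1. *dve* was not called (log2 fold change −0.01).

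Most genes on the testis and midgut lists were also called higher on the sugar diet. Of 23 testis genes, 16 were called higher and 0 lower, where 14% of all tested genes were called higher and 0.54% lower. The whole testis list summed to 666.6, 857.7 and 1107 CPM on the sugar diet, against 477.2, 472.0 and 534.2 CPM on the control diet. The 18 of them at least 4-fold above the control diet, many of them coding for parts of the sperm, summed to 181.0, 296.6 and 589.5 CPM on the sugar diet, against 4.44, 3.09 and 5.86 CPM on the control diet. That split was made on these same values, so the gap between the diets in the 18 genes follows from it. Both testis sums were highest of the control diet in replicate 3, where the seminal fluid protein genes were lowest. The sum of the 18 genes in sugar diet replicate 2 was 1.64 times that in replicate 1, where the seminal fluid protein genes stood at 1.04. The list's *bol*, *mia* and *twe* were abundant on both diets and were not called, with log2 fold changes of −0.05, −0.07 and 0.36. Of 13 midgut genes, mostly digestive proteases, 8 were called higher and 0 lower, and *deltaTry* had 0 reads in all 6 libraries. The whole midgut list summed to 91.0, 190.6 and 446.6 CPM on the sugar diet, against 20.2, 7.29 and 5.35 CPM on the control diet. The 11 at least 4-fold above the control diet, by the same split, summed to 87.1, 185.7 and 441.4 CPM on the sugar diet, against 16.5, 2.30 and 1.59 CPM on the control diet. In this list as in the seminal fluid protein genes, control diet replicate 1 was the highest of its group. The part of these organs' RNA in the levels of the seminal fluid protein genes was not tested.

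Of 5 Malpighian tubule genes, 2 were called higher and 0 lower, beside 14% of all tested genes higher and 0.54% lower. The whole list summed to 33.8 to 42.4 CPM on the sugar diet and 27.2 to 32.9 CPM on the control diet. The 2 genes at least 4-fold above the control diet, a split made on these same values, summed to 2.35, 1.90 and 8.69 CPM on the sugar diet. They summed to 0.748, 0.159 and 0.569 CPM on the control diet. Of 5 yolk and fat body genes, 0 were called higher and 3 lower, and their sum was 653.9, 54.9 and 52.8 CPM in sugar diet replicates 1, 2 and 3, against 637.6, 2875 and 289.4 CPM in control diet replicates 1, 2 and 3. The high value in sugar diet replicate 1 came from *Lsp2* alone, with 11512, 53 and 40 reads on the sugar diet, against 14033, 6659 and 86 on the control diet. *Lsp2* was thus also high in control diet replicates 1 and 2. The other 4 genes summed to 52.4, 51.8 and 50.4 CPM on the sugar diet, against 54.8, 2347 and 284.5 CPM on the control diet. The 3 genes called lower were *Yp1*, *Yp2* and *Yp3*. *Yp1* had 48, 32 and 20 reads on the sugar diet, against 150, 14381 and 2401 on the control diet. The 4 neuronal, 6 photoreceptor, 4 sweet taste and 2 flight muscle genes gave 0 calls in either direction, and flight muscle summed to 3.23 to 4.28 CPM on the sugar diet and 4.28 to 8.27 CPM on the control diet.

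The profile with most of the level in sugar diet replicate 3 was not particular to seminal fluid protein genes. Over all 1990 genes called higher on the sugar diet, those with at least 30 reads there had median shares of 19.5%, 25.5% and 54.7% in replicates 1, 2 and 3. Testis genes at least 4-fold above the control diet had a median ratio of replicate 2 to replicate 1 of 1.48, with 15 of 16 above 1. In the seminal fluid protein genes the median of this ratio was 1.19, and 20 of 34 were above 1. With the same 4-fold minimum it was 1.23, with 20 of 33 above 1. In midgut genes with that minimum the median ratio was 1.11, with 5 of 9 above 1. Over the genes called higher with at least 30 reads the median ratio was 1.30.

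The members also shared features of position and structure. They are short, with a median of 456 bases of exon (range 168 to 2923) beside 1725 over 13679 protein-coding genes, and 41 of the 45 have under 1000 bases of exon, beside 24.2% of protein-coding genes. There were 14 with 1 exon, 27 with 2 and 4 with 3. Of the 45, 23 (51.1%) lie on chromosome arm 2L, which holds 19.0% of protein-coding genes, and 8, 8 and 6 lie on 2R, 3L and 3R. The X chromosome, with 15.6% of protein-coding genes, holds 0. In 12 genes another member lies within 1000 bases. No member's exons overlap another gene on the same strand. On the opposite strand, exons of *Sfp78E*, *Sfp84E* and *Acp95EF* overlap those of another gene.

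The protein-coding genes on either side of a member, other than members, were 71 in number, of which 60 had a q. Of these, 16 (26.7%) were called higher and 0 lower, beside 14% of all tested genes higher, and their median log2 fold change was 0.31. The called genes included *Mst57Db* and *Mst57Dc* beside *Sfp96F*, *Mst33A* beside *Acp33A*, *lectin-29Ca* beside *Acp29AB* and *EbpII* beside *Sfp60F*. *Mst57Db* had 417, 369 and 1063 reads on the sugar diet, against 9, 0 and 1 on the control diet. *Mst57Db*, *Mst57Dc* and *EbpII* are also on the lists of accessory gland and duct genes.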

How the data were processed

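RNA from fly heads was depleted of ribosomal RNA, prepared into libraries with a kit of the Ovation SoLo system and sequenced on a NextSeq instrument. Per the labels and the methods of the study, the authors discarded reads of low quality, aligned the rest with STAR to the BDGP6 genome and used SAMtools 1.4, HTSeq and DESeq2 1.18.0. The deposited files hold raw read counts for each gene, with no normalization, in the column layout that STAR writes. The sense column was used, which held 97.0% to 97.3% of the stranded counts. Rows that name no gene (unmapped, multimapping, ambiguous and unassigned reads) made up 40.9% to 47.3% of a table and were left out. The treatment of PCR duplicates and the annotation release used for counting were not given in the sources used here.

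Symbols and positions were matched to 17215 of 17489 identifiers, the members among them, in the Ensembl annotation of BDGP6. Of 90 genes on the marker lists, 1 (*para*) was not matched. Members, marker lists and tests were chosen with earlier results of these data known. Diets were compared by DESeq2 1.42.0 in R 4.3.3 (Wald test, two-sided), the method of the study, on all genes with a count. Genes were called at a Benjamini-Hochberg q under 0.1. The quasi-likelihood test of edgeR 4.0.16 was an alternative, and the test scripts were tested on simulated data. Python 3.11.15, pandas 2.3.3 and scipy 1.17.1 gave CPM values, shares and exact 95% Poisson and binomial intervals. The ratios with intervals take reads as independent. Named members are the 10 with the highest mean normalized count on the sugar diet, those with at least 3 reads in a control diet library, the 3 highest and 3 lowest shares in sugar diet replicate 3 among members with at least 30 reads, and cluster neighbours. *Acp29AB*, *Acp62F*, *Acp76A*, *Acp26Aa* and the members listed as overlapping, lowest or not called were named in addition, after their values were seen. Alternatives were other size factors, a minimum of 10 counts in 3 libraries, unstranded counts, a block for replicate number, other detection minimums and leaving out each library. Sequences were not used here.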

Additional observations from a re-analysis of the deposited data

Results flagged for a closer look

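The opposite-strand column of the tables was not used in the comparisons. In it, *Acp62F* had 5, 2 and 5 reads in sugar diet replicates 1, 2 and 3, a sum of 12, against 0, 0 and 1 for the control diet. It was picked out because these opposite-strand reads exceeded those of the control diet, but it was not alone in this. *Acp54A1* had 5, 1 and 1, against 0, 0 and 0, and *Acp32CD* had 7, 8 and 11, against 6, 5 and 2. Other members did not show it, such as *Acp36DE* with 54, 31 and 28, against 43, 34 and 50. Summed over the 45 genes, opposite-strand reads came to 277, 224 and 179 for the sugar diet, against 347, 177 and 259 for the control diet. These sums include *Sfp78E*, *Sfp84E* and *Acp95EF*, whose exons overlap another gene on that strand. Reads counted there for these genes can come from that other gene. *Acp95EF* had 41, 51 and 40 of them for the sugar diet, against 112, 39 and 72 for the control diet. The source of the sums was not tested.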

How the results depend on the processing

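Over the DESeq2 alternatives on all libraries and all genes with a count, 27 to 32 of the 44 or 45 members fitted were called higher and 0 lower. Their median log2 fold change was 3.91 to 5.21. Fits with a count filter called 25 of 25 (10 counts in 3 libraries), 25 of 25 (edgeR) and 26 of 28 (edgeR with the block), with medians of 5.84 to 6.24. Most of these members passed the filter by their sugar diet reads. These alternatives called 1600 to 2150 genes in all, and the main fit called 14% of tested genes higher. Leaving out each library gave 24 to 34 members, 1443 to 2532 genes and medians of 4.36 to 5.94, all lowest without sugar diet replicate 3. Same-numbered libraries did not deviate together (correlations of 0.0327, −0.0369 and −0.0998 over 11486 genes), so replicate numbers were not taken as pairs, and with a block for replicate number 28 members were called by DESeq2 and 26 by edgeR. The mean number of members detected was 43.7 on the sugar diet and 20.7 on the control diet with a minimum of 1 read, and 30.0 and 1.33 with a minimum of 10. Unstranded counts gave 18.7 detected members and a summed level of 11.8 CPM on the control diet, against 214.8 CPM on the sugar diet. They add opposite-strand reads, and *Acp95EF*, whose exons overlap a gene on the other strand, had 0 unstranded reads in all 6 libraries. Leaving out 1 library moved the mean summed level to 141.5 to 274.3 CPM on the sugar diet (lowest without replicate 3) and 2.37 to 4.63 CPM on the control diet (lowest without replicate 1). The median share in sugar diet replicate 3 was 56.7% to 59.6% under other scalings and minimums. Left-out libraries were tried for the fold from summed reads after the data were seen. It moved by over 1.5 times for 21 of 36 members without sugar diet replicate 3, and for 2 and 1 without sugar diet replicates 1 and 2. Without control diet replicates 1, 2 and 3 it did so for 23, 13 and 28. No control read was left for 9 of them without control diet replicate 1 and for 7 without control diet replicate 2. Among the 22 members of the naming rule, *Acp32CD* lost its call without sugar diet replicate 3 (log2 fold change 3.65) and without control diet replicate 2 (4.42), *Sfp77F* without sugar diet replicate 3 (3.15), control diet replicate 1 (3.56) or control diet replicate 3 (3.64) and in edgeR with the block (4.05), and *Acp63F* with unstranded counts (1.16); their causes were not tested. *Sfp84E* gained a call with total-count factors (4.90) and without sugar diet replicate 1 (5.31), *Sfp38D* also without sugar diet replicate 1 (2.95) and *Sfp78E* without control diet replicate 2 (4.64). Depth limits the folds, as 9 members had 0 reads and 19 had 1 to 3 reads over the control diet libraries.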
